A study of Homo sapiens with 24 samples.

Results

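The transcripts that differ between DU145 cells given a miR-638 mimic and DU145 cells given either of 2 control mimics are described here, from 12 of the 24 arrays of the series. The members are the total-RNA arrays: 4 of cells with the miR-638 mimic, 4 with the NC1 mimic and 4 with the NC2 mimic. DU145 is an established cell line derived from a human prostate cancer metastasis that grows without androgen. All 3 groups carried a synthetic mimic, were grown in DMEM with 10% FBS and gave total RNA by Trizol, which was labelled with biotin and hybridised to Illumina bead arrays. The other arrays of the series measured RNA recovered with biotinylated microRNAs. The sequences of NC1 and NC2, the dose of mimic and the time after delivery are not used here. The labels do not say that replicates were separate cultures, so p-values measure the spread between these arrays, which may be technical. The line is a single cell type in bulk, where less RNA per cell and fewer cells with a transcript cannot be told apart.

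A microRNA guides an Argonaute protein to messenger RNAs, mainly by pairing of its seed near the 5′ end with sites in the message, and the targeted messages are usually translated less and degraded faster. A mimic is a synthetic duplex that loads the same guide strand, and control mimics carry sequences meant to have no such partner but still enter the same machinery. miR-638 is encoded inside DNM2, the gene of a dynamin that pinches off membrane vesicles. The mature strand is shown because its seed, in capitals (bases 2 to 8), is the part that pairing would use; it is the RefSeq entry placed on GRCh38.p14 at chr19:10718419-10718443, plus strand.
hsa-miR-638: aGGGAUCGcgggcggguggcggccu
The strand has 25 bases, of which 14 are G, and 80% of them are G or C. Among 2545 mature human microRNAs in the RefSeq table, no other name carries this seed. The arrays held no check on the level of the mature microRNA, so its rise in the mimic cells was not tested.

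Levels are log2 intensities after background correction and quantile normalization, differences are log2, and a gene counts as changed at an adjusted p under 0.05 in limma's fit with a term for the pair of replicate numbers. Between 43.6% and 47.1% of the probes were detected per array, and the mean signal ran from 300.0 to 463. The epithelial markers EPCAM, KRT8, CDH1 and KRT19 and the mesenchymal VIM were detected on all 12 arrays, the epithelial KRT18 on 2 of 4 miR-638, 3 of 4 NC1 and 2 of 4 NC2 arrays, and the androgen-driven luminal genes KLK3, KLK2 and TMPRSS2 on 0. The endothelial genes CDH5, VWF and KDR, the blood genes PTPRC, CD3E and HBA1 and the fibroblast genes COL3A1, LUM and PDGFRB were also detected on 0 arrays. Other members of these lists were detected: CD14, LYZ, CD79A and COL1A2 on all 12 arrays, and, on miR-638, NC1 and NC2 arrays in turn, COL1A1 on 3, 3 and 4, DCN on 2, 0 and 2, PECAM1 on 2, 1 and 0 and HBB on 1, 0 and 1. The arrays fell into replicates 1 and 2 and replicates 3 and 4: 6982 of 12646 genes (55.2%) differed between these pairs, 462 of them by at least 2-fold. The labels do not call the pairs a batch. Each pair holds all 3 mimics, so differences were also read within each pair.

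Of the 12646 genes tested, 1318 rose and 1211 fell with the miR-638 mimic relative to both controls weighted equally, 20.0% in all (10.4% higher and 9.58% lower). Most were small: the median size among the changed genes was 0.31 and 24 genes (0.190%) changed by at least 2-fold. Set against each control singly, with the miR-638 arrays shared by both comparisons, 1880 genes (14.9%) differed from NC1 and 3794 (30.0%) from NC2. The controls themselves differed in 4209 genes (33.3%). A change in 1 direction against both controls, NC1 alone and NC2 alone was found for 685 genes (5.42%), 321 higher (2.54%) and 364 lower (2.88%). Of the 2529 changed genes these were 27.1%, while 457 passed against NC1 only, 1347 against NC2 only and 40 against neither. In 295 of the 2529 the differences from NC1 and from NC2 had opposite signs. In 98 of the 321 and 145 of the 364 all 4 miR-638 arrays lay outside all 8 control arrays, as they did in 313 of all genes tested (2.48%). The genes that moved the same way against each control are the ones described first. Without the term for the pairs 422 genes passed against both controls and 94 in 1 direction against each; genes described below whose call ends without that term are given with that adjusted p. Without miR-638 array 2 the counts were 1634 and 435.

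**Figure D1:**
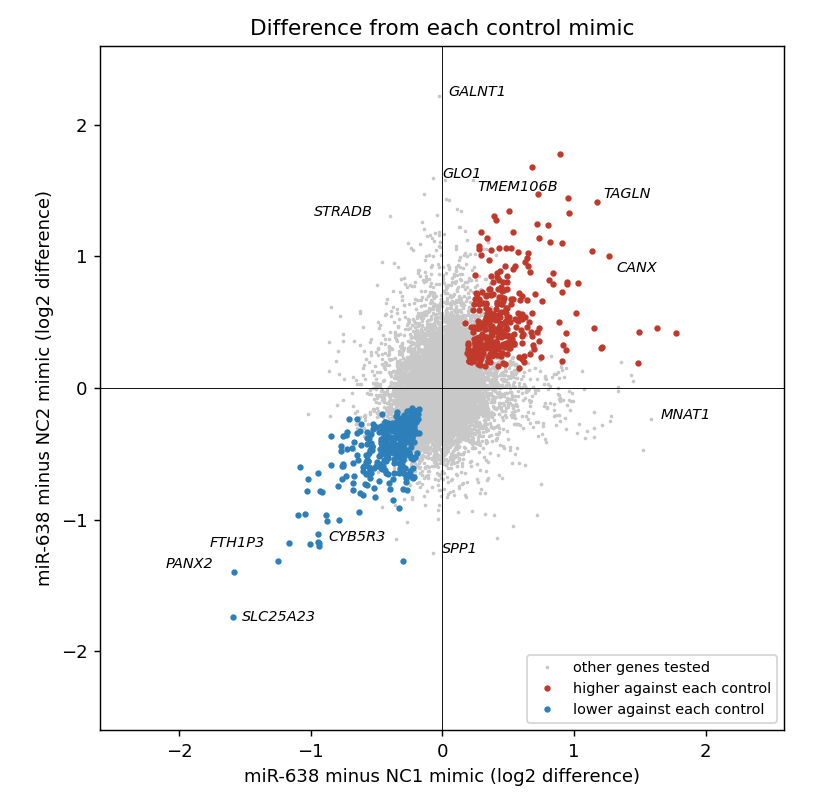
Each point is 1 of the 12646 genes, with its difference (log2) between miR-638 and NC1 mimic arrays on the x axis and between miR-638 and NC2 mimic arrays on the y axis; genes changed in 1 direction against each control are coloured and some genes described in the text are named. TAGLN lies at 1.17 and 1.42 and SLC25A23 at -1.59 and -1.74, while GALNT1 lies at -0.03 on the x axis and 2.22 on the y axis, away from NC2 only; both axes share the miR-638 arrays.

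The largest common increases included an actin-binding protein, secreted proteins and lectins of the endoplasmic reticulum. Leading genes, higher or lower, had to have miR-638 arrays outside the controls within each pair of replicates. That layout within pairs is therefore part of the choice and lends no support to their calls. TAGLN, transgelin, an actin-binding protein of smooth muscle and a classical target of the transcription factor SRF, stood at 9.89, 9.85, 10.94 and 11.24 on miR-638 arrays 1 to 4, against 8.43, 8.56, 10.04 and 10.21 with NC1 and 8.20, 8.33, 9.77 and 9.96 with NC2. Within each pair of replicates both miR-638 arrays were the highest, but over all 12 arrays the groups overlapped, because replicates 3 and 4 were higher in every group. TAGLN rose 2.45-fold, by 1.29 on the log2 scale (SE 0.08, 4 arrays against 8, limma's adjusted p = 5.86e-11). The rise was 1.49 within replicates 1 and 2 and 1.10 within 3 and 4. DKK3, a secreted glycoprotein of the Dickkopf family, had the same layout: 8.19, 8.10, 10.21 and 10.09 with miR-638, against 6.89, 6.83, 9.25 and 9.07 with NC1 and 6.84, 6.61, 9.47 and 9.49 with NC2. The shift between the pairs of replicates in DKK3 was larger than the shift with the mimic, and the miR-638 arrays were again the highest in each pair. It rose by 1.09 (SE 0.09, adjusted p = 1.66e-08). TNNC1, the troponin C of slow and cardiac muscle, shifted the other way between pairs: 7.99, 8.05, 7.01 and 6.70 with miR-638, against 7.17, 6.98, 5.80 and 5.96 with NC1 and 6.57, 6.52, 5.59 and 5.75 with NC2. Its miR-638 arrays were the highest within each pair, and it rose by 1.14 (SE 0.09, adjusted p = 5.83e-09). The calls of these genes rest on the pair term: without it the adjusted p was 0.182 for TAGLN, 0.569 for DKK3 and 0.101 for TNNC1.

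CANX, the lectin chaperone calnexin of the endoplasmic reticulum, stood at 9.84, 9.91, 9.67 and 9.64 with miR-638, against 8.51, 8.53, 8.49 and 8.46 with NC1 and 8.75, 8.64, 8.93 and 8.71 with NC2. All 4 miR-638 arrays lay above all 8 controls, the replicates of each group were close together, and its other probe gave 1.15 beside 1.14. MLEC, malectin, a lectin of the same compartment that binds glucose-capped glycans, stood at 11.37, 11.09, 11.17 and 11.14 with miR-638, against 10.43, 10.22, 10.39 and 10.47 with NC1 and 9.88, 10.04, 10.25 and 10.15 with NC2. Here too no control array reached the miR-638 range. MLEC rose by 0.96 (SE 0.07, adjusted p = 5.34e-10), with 1.08 and 0.84 within the pairs. TMEM106B, a membrane protein of late endosomes and lysosomes, stood at 8.88, 8.85, 9.27 and 9.01 with miR-638, against 7.76, 8.15, 8.24 and 8.04 with NC1 and 7.36, 7.13, 7.80 and 7.94 with NC2. The groups did not overlap, and the NC2 arrays were the lowest. CCN2, a matrix-associated growth factor partner and target of YAP, stood at 9.75, 9.49, 9.87 and 10.15 with miR-638, against 8.75, 8.81, 9.18 and 9.30 with NC1 and 8.22, 8.25, 8.97 and 8.85 with NC2. All miR-638 arrays exceeded all controls, by 0.80 relative to NC1 and by 1.24 relative to NC2.

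**Figure D2:**
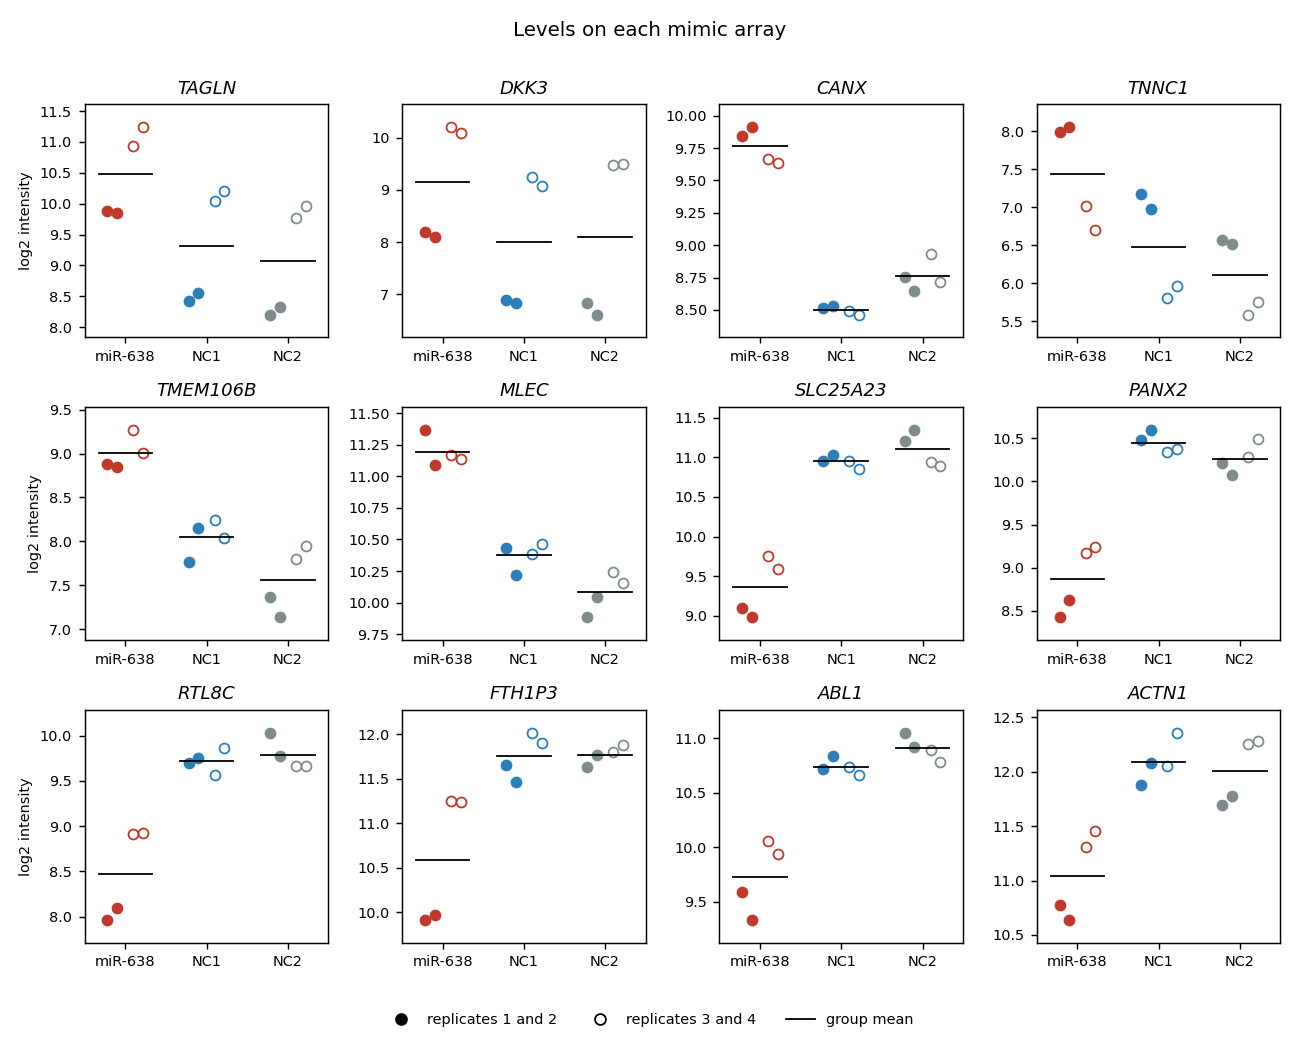
Log2 level of leading genes on every mimic array, with miR-638, NC1 and NC2 from left to right in each panel; filled points are replicates 1 and 2, open points replicates 3 and 4, and lines are group means. CANX and SLC25A23 show groups that do not overlap, while TAGLN and DKK3 show miR-638 arrays that are highest within each kind of point only.

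The other 8 of the 15 leading increases had diverse roles. STC1, the secreted glycoprotein stanniocalcin, stood at 7.28, 7.41, 7.61 and 7.59 with miR-638, against 6.11, 6.24, 6.90 and 6.84 with NC1 and 6.07, 6.33, 7.06 and 7.19 with NC2. Every miR-638 array was above every control, though without the pair term its adjusted p was 0.0518. SYT11, a synaptotagmin of membrane trafficking, stood at 8.39, 8.24, 8.19 and 7.93 with miR-638, against 6.87, 7.06, 7.41 and 7.28 with NC1 and 7.30, 7.09, 7.56 and 7.60 with NC2. Its groups did not overlap, and its rise of 0.92 (SE 0.10, adjusted p = 6.62e-07) was 1.23 within replicates 1 and 2 and 0.60 within 3 and 4. SLC22A4, a transporter of organic cations and ergothioneine, and TM7SF3, a membrane protein, each rose by 0.82. PALM3, SYNGR3, a protein of synaptic vesicles, TINAGL1, a secreted matrix protein, and RRAD, a small GTPase, were dim with the controls. Detection held on 1 of 8 control arrays for PALM3, 4 for SYNGR3, 4 for TINAGL1 and 3 for RRAD, against 4 of 4 miR-638 arrays for each. A gene was tested if detected on 4 mimic arrays or more. PALM3 and RRAD met this only through the miR-638 arrays, where they were high, so their detection there lends no support to their rise. With undetected controls raised to the lowest detected signal, the increases were at least 1.70-fold for PALM3 and RRAD, 1.68-fold for SYNGR3 and 1.65-fold for TINAGL1. TINAGL1 and RRAD had an adjusted p of 0.186 and 0.175 without the pair term and of 0.0541 and 0.107 within replicates 3 and 4.

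The largest common decreases included a mitochondrial carrier, a channel protein, a retrotransposon-derived gene and a ferritin pseudogene. SLC25A23, which carries ATP-Mg and phosphate across the inner mitochondrial membrane, stood at 9.10, 8.98, 9.76 and 9.60 with miR-638, against 10.96, 11.03, 10.96 and 10.86 with NC1 and 11.21, 11.35, 10.95 and 10.89 with NC2. All 4 miR-638 arrays were below all 8 controls, and replicates 1 and 2 were the lowest. It fell by 1.66 (SE 0.11, adjusted p = 1.52e-10), a 3.17-fold decrease. PANX2, a pannexin channel protein, stood at 8.42, 8.63, 9.17 and 9.25 with miR-638, against 10.48, 10.60, 10.34 and 10.38 with NC1 and 10.21, 10.07, 10.29 and 10.49 with NC2. RTL8C, a gene derived from the Gag part of a retrotransposon, stood at 7.96, 8.10, 8.92 and 8.92 with miR-638, against 9.70, 9.76, 9.57 and 9.87 with NC1 and 10.03, 9.78, 9.67 and 9.67 with NC2. In both genes the groups were well apart, and the miR-638 arrays of replicates 1 and 2 were again below those of 3 and 4. FTH1P3, a processed pseudogene of ferritin heavy chain, stood at 9.91, 9.97, 11.25 and 11.23 with miR-638, against 11.66, 11.46, 12.02 and 11.90 with NC1 and 11.64, 11.76, 11.80 and 11.88 with NC2. No miR-638 array reached the control range, which replicates 3 and 4 approached. Signal from near-identical RNAs on the probes of FTH1P3 and RTL8C was not tested.

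ACTN1, the alpha-actinin that cross-links actin filaments, stood at 10.78, 10.63, 11.30 and 11.46 with miR-638, against 11.88, 12.08, 12.05 and 12.36 with NC1 and 11.70, 11.78, 12.26 and 12.29 with NC2. CYB5R3, the reductase of cytochrome b5, stood at 11.56, 11.54, 11.83 and 11.84 with miR-638, against 12.50, 12.56, 12.80 and 12.69 with NC1 and 12.86, 12.68, 12.81 and 12.85 with NC2. Neither gene's groups overlapped, and the fall of CYB5R3 (-1.03, SE 0.05, adjusted p = 5.07e-12) was nearly the same within both pairs, -1.10 and -0.95. NMT2, an N-myristoyltransferase, stood at 9.37, 9.33, 9.35 and 9.38 with miR-638, close together, against 10.39, 10.52, 10.00 and 10.07 with NC1 and 10.36, 10.51, 10.18 and 10.24 with NC2. Its probes gave -0.92 and -0.37. ABL1, a non-receptor tyrosine kinase, stood at 9.59, 9.33, 10.06 and 9.94 with miR-638, against 10.72, 10.83, 10.73 and 10.67 with NC1 and 11.05, 10.92, 10.89 and 10.78 with NC2. Its 3 probes gave values between -1.10 and -0.18. TP53INP2, a regulator of autophagy, stood at 7.25, 7.07, 7.60 and 7.72 with miR-638, against 8.34, 8.40, 8.26 and 8.39 with NC1 and 8.86, 8.91, 8.25 and 8.32 with NC2. The other leading decreases were LRP3, a receptor of the LDL receptor family (-1.03), PIP5K1C, a kinase that makes a phosphoinositide (-1.06), RPS6KB2, a kinase of ribosomal protein S6 (-0.85), FAM222B (-1.07), CCDC92 (-0.94) and TMEM114 (-0.89). For all 15 leading decreases each miR-638 array lay below every control array.

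The miR-638 difference was larger in replicates 1 and 2 than in 3 and 4 in 268 of the 321 genes higher against each control and in 286 of the 364 lower ones. The same share over all genes tested was not counted, so the pattern is not shown to be particular to these genes. Median differences of the higher genes were 0.54 within replicates 1 and 2 and 0.36 within 3 and 4, and of the lower genes -0.45 and -0.32. In all, 2370 of 12646 genes (18.7%) passed within replicates 1 and 2, and 861 (6.81%) within 3 and 4. The difference between the pairs was itself tested, and 64 genes (0.506%) passed, 60 of them with the larger difference in replicates 1 and 2. Among these were 9 of the genes higher and 11 of those lower against each control. FTH1P3 fell by 1.69 within replicates 1 and 2 and by 0.65 within 3 and 4 (adjusted p = 2.48e-06 for the difference). RTL8C fell by 1.79 within replicates 1 and 2 and fell by 0.77 within 3 and 4 (adjusted p = 4.11e-05). Without miR-638 arrays 1, 2, 3 or 4 the 64 became 30, 39, 18 and 38, and without NC1 array 2 they became 40. SLC25A23, PANX2, ABL1, PIP5K1C, TP53INP2 and TMEM114 also passed this test. TAGLN, DKK3, CANX, CYB5R3 and ACTN1 did not, with adjusted p of 0.223, 0.0764, 0.468, 0.657 and 0.374.

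**Figure D3:**
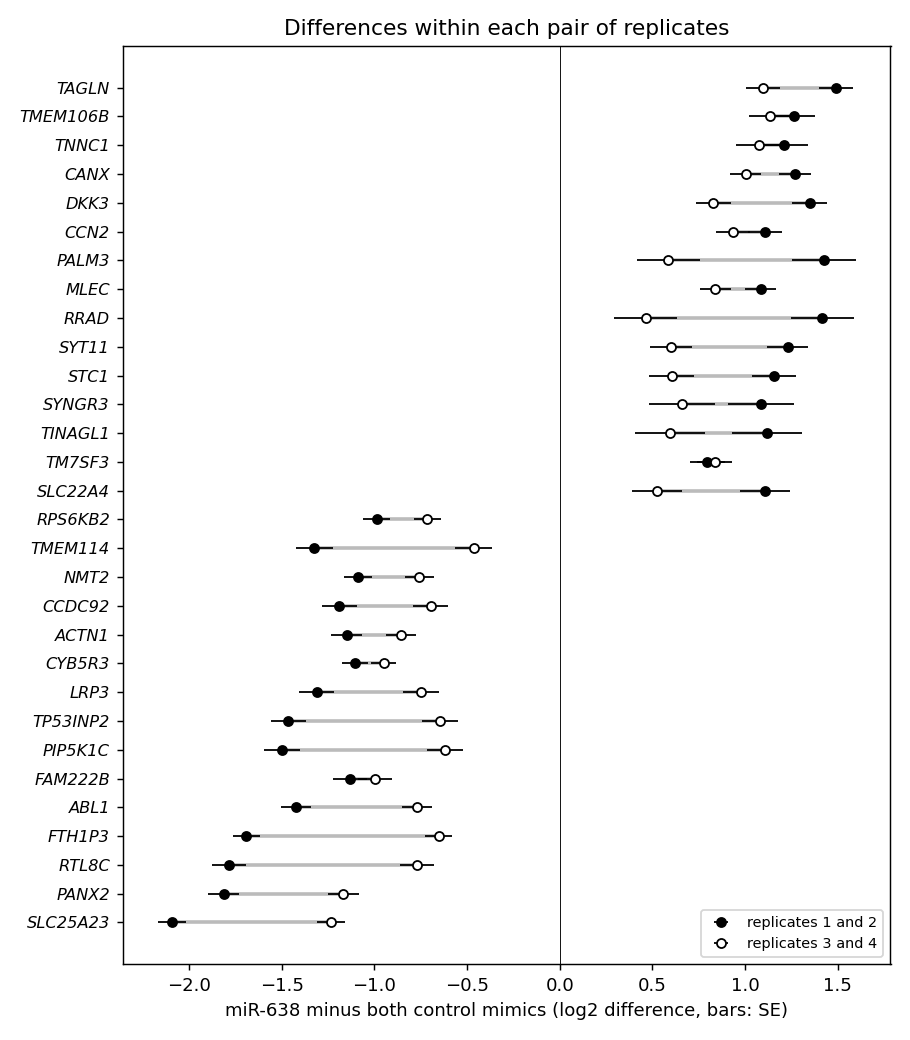
Difference (log2, x axis, bars are SE) between miR-638 and both control mimics for the 15 leading increases and 15 leading decreases, within replicates 1 and 2 as filled points and within 3 and 4 as open points. The filled points lie farther from 0 for 29 of the 30 genes, as for SLC25A23 at -2.09 and -1.24, and TM7SF3 is the exception. The same share over all genes tested was not counted.

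Interferon-induced genes were among the 64, in 25 of which the signs differed between the pairs. OASL, a relative of the oligoadenylate synthetases, stood at 7.56, 7.57, 9.25 and 9.25 with miR-638, against 6.80, 6.69, 8.47 and 8.75 with NC1 and 6.59, 6.32, 9.50 and 9.57 with NC2. The miR-638 arrays were above both controls in replicates 1 and 2 and between the controls in 3 and 4, so that the difference was 0.97 and 0.18 (adjusted p = 0.00576 for the change). IFIT2, an interferon-induced protein that binds RNA, differed by 0.95 and 0.09 (adjusted p = 4.11e-05). Neither passed against both controls together without the pair term, with adjusted p of 0.820 for OASL and 0.834 for IFIT2. The interferon list as a whole had 4 higher and 3 lower of 44 measured members (0 and 0 with the authors' values). In all 15.9% of the list changed, against 20.0% of all genes, and 0 members moved in 1 direction against each control. Its median difference was 0.44 against NC1 and -0.24 against NC2, beside -0.00 and -0.01 over all genes.

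The gene lists were counted next, and a leading gene is also counted in the list of its family. The lists were chosen with earlier results of these data known, so their shares are descriptions only. The SRF and actin list, with 38 names of which 33 are on the array, had 8 members higher and 5 lower of 29 measured (44.8% changed, against 20.0% of all genes). Of these, 6 and 3 moved in 1 direction against each control, beside 2.54% and 2.88% of all genes. Its median was 0.02, or -0.02 with median scaling, beside -0.00 over all genes. The members that rose were TAGLN, the tropomyosins TPM2 (0.75) and TPM1 (0.74), which wind along actin filaments, the focal adhesion adaptor TGFB1I1 (0.61), the myosin light chain MYL9 (0.51), SRF itself (0.45), the LIM proteins PDLIM7 (0.23) and FHL2 (0.17). TPM1 stood at 11.15, 11.17, 11.55 and 11.81 with miR-638, against 10.67, 10.49, 11.57 and 11.61 with NC1 and 9.75, 9.78, 10.87 and 10.73 with NC2. In replicates 3 and 4 its miR-638 and NC1 arrays overlapped, its 4 probes ran from 0.07 to 0.74, and its adjusted p was 0.206 without the pair term. The members that fell were ACTN1, beta-actin ACTB (-0.42), TAGLN2 (-0.40), the actin-severing CFL2 (-0.27) and caldesmon CALD1 (-0.18). Several of these calls end without the pair term, with adjusted p of 0.289 for TPM2, 0.308 for TGFB1I1, 0.293 for MYL9, 0.567 for PDLIM7, 0.218 for FHL2, 0.159 for CFL2 and 0.877 for CALD1. ACTB fell by 0.39 relative to NC1 and by 0.45 relative to NC2, while MYL9 rose by 0.52 and 0.50.

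**Figure D4:**
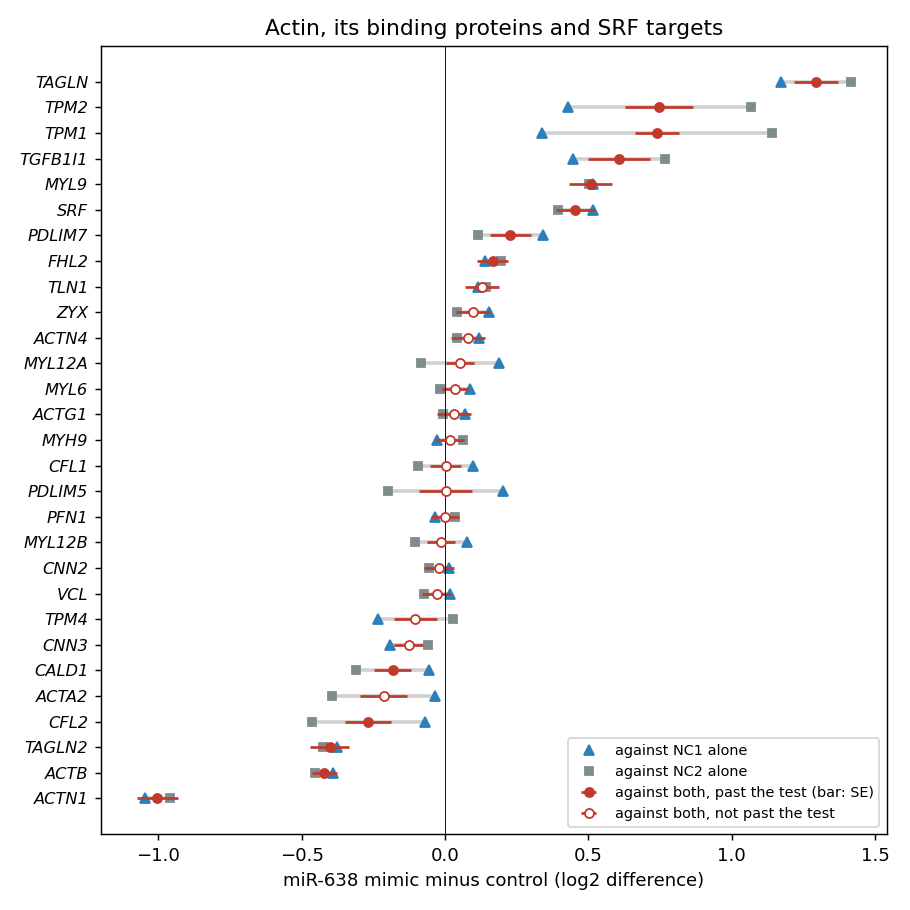
Difference (log2) between miR-638 mimic and control mimics for the measured members of the SRF and actin list, as circles for both controls, triangles for NC1 and squares for NC2. TAGLN is at the upper end (1.29) and ACTN1 at the lower end, with ACTB at -0.42 against both controls.

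SRF binds a motif known as the CArG box, and the 300-base promoter windows of the 2 changed members that hold one are shown, from RefSeq on GRCh38.p14, with the box in capitals. The SRF window is chr6:43171019-43171318, plus strand, and the FHL2 window chr2:105438464-105438763, minus strand; both run from 250 bases before to 50 bases after the annotated start.
SRF: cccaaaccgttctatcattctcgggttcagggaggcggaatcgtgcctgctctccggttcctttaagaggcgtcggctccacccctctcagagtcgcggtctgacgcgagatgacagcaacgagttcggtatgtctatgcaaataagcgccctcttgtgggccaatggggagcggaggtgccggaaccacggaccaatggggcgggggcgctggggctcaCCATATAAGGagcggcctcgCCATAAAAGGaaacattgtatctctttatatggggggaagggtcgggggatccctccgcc
FHL2: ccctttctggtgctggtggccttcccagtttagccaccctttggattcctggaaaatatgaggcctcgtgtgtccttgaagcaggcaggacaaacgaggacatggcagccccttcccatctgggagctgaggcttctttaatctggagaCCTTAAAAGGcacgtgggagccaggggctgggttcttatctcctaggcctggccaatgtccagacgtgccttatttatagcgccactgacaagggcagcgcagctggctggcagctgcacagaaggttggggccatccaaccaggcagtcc
TAGLN, ACTB and MYL9 were not searched. Both strands were searched for the CArG box; the motif reads the same on both. It was found in 2 of the 6 higher members with a window, 0 of 4 lower members and 3 of 16 members that did not pass the test (ACTG1, CNN2 and TPM4). The box was held by 1.29% of the 27305 promoters in the RefSeq table. The list was chosen for SRF targets and actin genes, so its share beside that of all promoters does not bear on the mimic.

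CANX and MLEC belong to the list of folding and quality control in the endoplasmic reticulum. Over all genes tested 10.4% were higher and 9.58% lower, and in this list 8 of 38 members were higher and 2 lower (7 and 0 with the authors' values). CANX, MLEC and MANF (0.41), a stress-induced secreted protein, moved in 1 direction against each control, whereas EDEM3, which trims mannose from misfolded proteins, differed by 0.82 from NC1 and by 0.25 from NC2 (adjusted p = 0.0509). Calreticulin (CALR), the soluble relative of calnexin, fell by 0.19 (adjusted p = 0.528 without the pair term). In the GPI anchor list 4 of 25 members rose and 3 fell (4 and 0 with the authors' values). PIGS, a subunit of the transamidase that attaches the anchor, stood at 9.94, 10.01, 9.57 and 9.78 with miR-638, against 9.19, 9.34, 8.73 and 9.16 with NC1 and 8.66, 8.77, 8.43 and 8.46 with NC2, without overlap. PGAP1, which remodels the anchor, rose by 0.65 and PIGZ, a mannosyltransferase of the pathway, by 0.62, PIGZ with an adjusted p of 0.107 without the pair term. The 28 members of the N-glycan list had 2 higher, 1 lower and 0 in 1 direction against each control. In the Golgi list 6 of 36 were higher and 7 lower, but 5 and 1 with the authors' values. B4GALT6, which makes lactosylceramide, stood at 8.33, 8.27, 7.95 and 7.92 with miR-638, against 6.68, 6.70, 6.55 and 6.54 with NC1 and 7.73, 7.91, 7.55 and 7.57 with NC2. Its miR-638 arrays were the highest, but the rise was larger relative to NC1 than relative to NC2 (0.43). GALNT2, an enzyme that starts mucin-type glycans, fell by 0.49.

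The other families of leading genes did not share their direction. Of 12 measured retrotransposon-derived Gag genes 3 fell and 2 rose, all 5 against each control. Over all genes 2.88% fell and 2.54% rose against each control. The list holds the leading gene RTL8C and was chosen with earlier results known, so its share is only a description. LDOC1, a small member on the X chromosome, stood at 8.36, 8.23, 8.65 and 8.49 with miR-638, against 9.17, 9.14, 8.91 and 9.05 with NC1 and 9.50, 9.58, 9.06 and 9.36 with NC2, with no overlap. RTL8A fell by 0.39 (adjusted p = 0.567 without the pair term), and the neuronal antigens PNMA2 and PNMA3 rose by 0.49 and 0.41. PNMA2 had an adjusted p of 0.318 without the pair term and of 0.0517 within replicates 3 and 4. Of 32 mitochondrial carriers 5 rose and 5 fell, among them the ornithine carrier SLC25A15 (0.60) and the citrate carrier SLC25A1 (-0.32, adjusted p = 0.0546 without the pair term). Of 17 non-receptor tyrosine kinases 1 rose and 4 fell, with ABL1 and CSK (-0.53), the kinase that restrains the SRC family, in 1 direction against each control. Among 36 vesicle proteins 7 rose and 3 fell, with SYT11, SYNGR3 and SYT12 (0.55) higher and SYT17 (-0.56) and STX3 (-0.45), a plasma membrane syntaxin, lower against each control; without the pair term the adjusted p was 0.120 for SYT12, and STX3 lost its call as well. Phosphoinositide kinases and phosphatases had 7 higher and 2 lower of 32, LDL receptor relatives 3 and 1 of 13, lysosomal genes 4 and 9 of 41, autophagy genes 6 and 6 of 37 and gap junction and pannexin channels 1 and 2 of 13, where 10.4% of all genes were higher and 9.58% lower. With the authors' values, by which 1297 genes passed in all, the vesicle list had 3 higher and 3 lower, the lysosomal list 3 and 2 and the autophagy list 2 and 5, so that the vesicle list no longer leaned to higher and the lysosomal list no longer to lower.

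**Figure D5:**
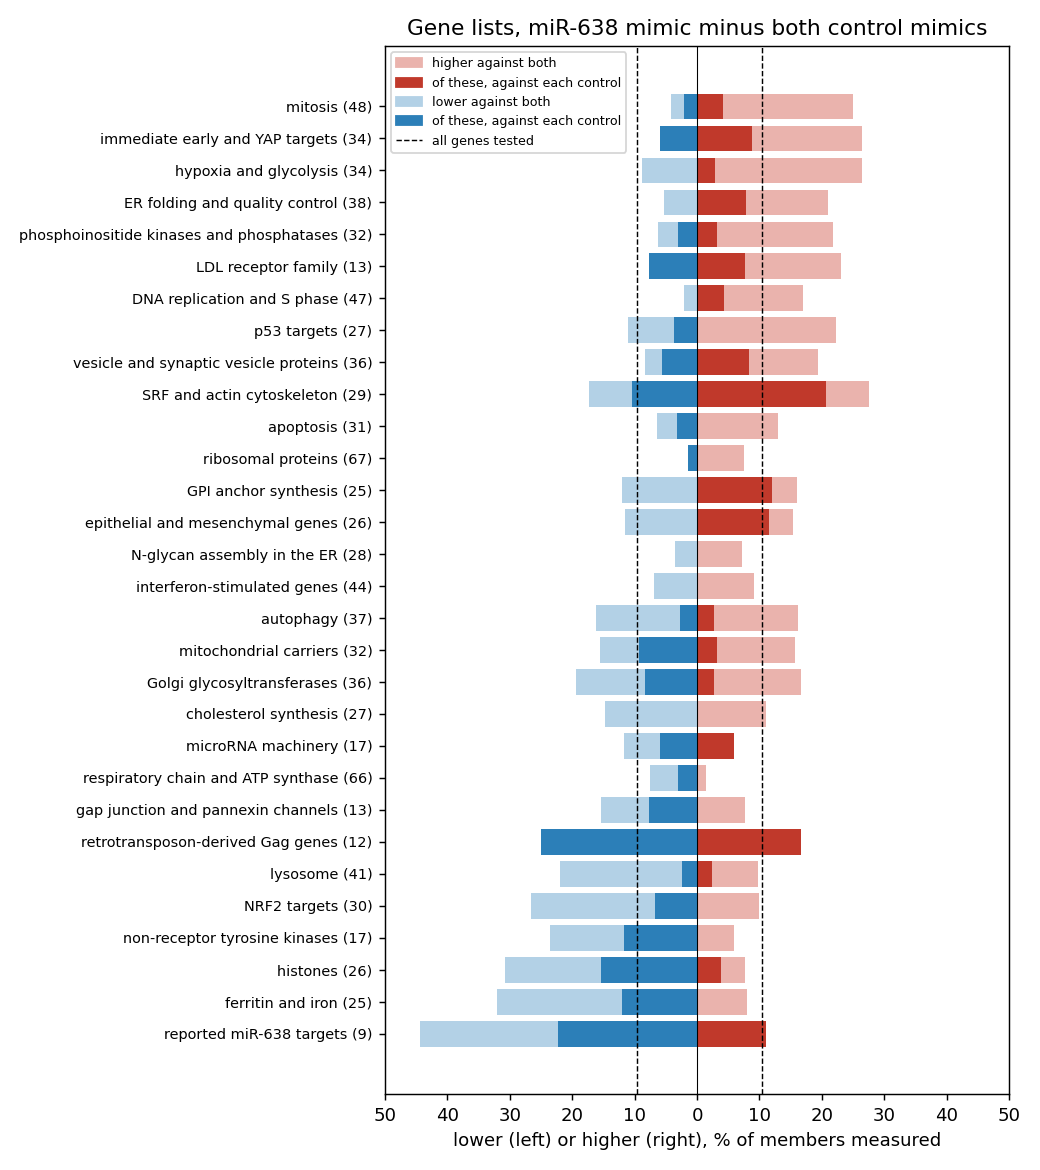
Members of each gene list that rose (to the right) or fell (to the left) with the miR-638 mimic, as a percentage of the members measured; pale bars count changes against both controls, dark bars those in 1 direction against each control, and dashed lines mark the share over all genes tested, 10.4% higher and 9.58% lower. The bars of mitosis (12 higher and 2 lower of 48) shrink to 2 higher and 1 lower when each control is required. Over all genes tested that requirement takes the changed share from 20.0% to 5.42%.

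Genes reported as targets of miR-638 in other work had 1 member higher and 4 lower of 9 measured (median 0.02, or -0.01 with median scaling). Over all genes 10.4% were higher and 9.58% lower. With the authors' values the target list had 1 higher and 2 lower. TP53INP2 and STARD10 (-0.61), a phospholipid transfer protein, fell against each control, PLD1 (-0.34) and CDK2 (-0.21) fell relative to both controls together (adjusted p = 0.136 for PLD1 and 0.0692 for CDK2 without the pair term), and BRCA1, of homologous recombination, rose by 0.37. BRCA1 stood at 7.58, 7.84, 7.90 and 7.73 with miR-638, against 7.25, 7.45, 7.40 and 7.51 with NC1 and 7.05, 7.37, 7.43 and 7.69 with NC2, so the groups overlapped. STARD10 and BRCA1 had adjusted p of 0.159 and 0.118 without the pair term. Of 17 genes of the microRNA machinery, TNRC6A, a scaffold that Argonaute recruits, rose by 0.60, AGO3, an Argonaute, fell by 0.45 and DICER1, which cuts microRNA precursors, fell by 0.19. In all 17.6% of this list changed, against 20.0% of all genes. The call of DICER1 ends without the pair term (adjusted p = 0.120) and with the authors' values (adjusted p = 0.0935), and its adjusted p against NC1 was 0.285. The probes of TNRC6A gave 0.08 and 0.60. TNRC6A stood at 9.50, 9.52, 9.15 and 8.95 with miR-638, against 9.05, 8.96, 8.80 and 8.77 with NC1 and 8.50, 8.56, 8.48 and 8.35 with NC2.

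Iron genes had 2 higher and 8 lower of 25. FTH1P3, PCBP1 (-0.29), a chaperone that delivers iron to ferritin, and BLVRB (-0.24), of haem breakdown, fell against each control, with an adjusted p without the pair term of 0.0898 for PCBP1 and 0.218 for BLVRB. FTL, the light chain of ferritin, stood at 13.51, 13.50, 14.15 and 14.28 with miR-638, against 13.97, 13.77, 14.20 and 14.21 with NC1 and 13.84, 14.00, 14.20 and 14.34 with NC2. The miR-638 arrays of replicates 1 and 2 were below all controls. Array 3 was slightly below the controls of replicates 3 and 4, and array 4 lay among them. The difference of -0.21 (adjusted p = 0.0216, or 0.649 without the pair term) was -0.18 against NC1 (adjusted p = 0.104). Within replicates 3 and 4 the difference from both controls was -0.03. Among immediate early and YAP genes 9 of 34 were higher and 2 lower, with CCN2, DUSP1 (0.57) and DUSP6 (0.47), phosphatases of MAP kinases, higher against each control; DUSP1 had an adjusted p of 0.438 and DUSP6 of 0.118 without the pair term. The epithelial and mesenchymal list had 4 higher and 3 lower of 26. KRT8, an epithelial keratin, stood at 10.71, 10.81, 11.51 and 11.61 with miR-638, against 10.08, 10.23, 10.90 and 11.14 with NC1 and 10.13, 10.01, 11.14 and 11.08 with NC2, and CDH1, E-cadherin, rose by 0.40. Both were highest with miR-638 within each pair and overlapped with the controls across pairs; without the pair term the adjusted p was 0.385 and 0.678. CDKN1A, the cell cycle inhibitor p21, stood at 10.64, 10.66, 11.48 and 11.43 with miR-638, against 11.08, 11.14, 11.73 and 11.72 with NC1 and 11.30, 11.41, 12.01 and 12.07 with NC2. It fell by 0.51 (SE 0.05, adjusted p = 1.46e-07; 0.296 without the pair term), while the p53 list had 6 higher and 3 lower of 27. Histones had 2 higher and 8 lower of 26, NRF2 genes 3 and 8 of 30, the respiratory chain 1 and 5 of 66, ribosomal proteins 5 and 1 of 67, hypoxia genes 9 and 3 of 34, cholesterol synthesis 3 and 4 of 27 and apoptosis genes 4 and 2 of 31, beside 10.4% higher and 9.58% lower over all genes. With the authors' values histones had 2 higher and 3 lower, NRF2 genes 3 and 2, cholesterol synthesis 3 and 1, hypoxia genes 4 and 0 and ribosomal proteins 0 and 0, so that NRF2 genes and cholesterol synthesis turned their lean.

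Many changes against both controls together came from 1 control. In mitosis genes 12 of 48 were higher and 2 lower (29.2% changed, against 20.0% of all genes). KIF14 and HMMR rose and CDCA8 fell against each control (adjusted p = 0.101, 0.764 and 0.117 without the pair term). Over all genes 5.42% moved in 1 direction against each control, as did 27.1% of the changed genes. The loss of calls when each control is required was thus not particular to mitosis genes. CCNA2, a cyclin needed for DNA synthesis and entry into mitosis, stood at 11.24, 11.27, 11.09 and 11.14 with miR-638, against 11.15, 11.27, 11.09 and 11.03 with NC1 and 9.62, 9.75, 9.91 and 9.73 with NC2. The miR-638 and NC1 arrays coincided and NC2 stood apart below them. S phase genes had 8 higher and 1 lower of 47 (19.1% changed, near the 20.0% of all genes). Of these TYMS, which makes thymidylate, and POLA1, a DNA polymerase subunit, rose against each control (adjusted p = 0.104 and 0.0744 without the pair term). The 4 higher genes whose differences from the controls lay furthest apart were GALNT1, MNAT1, STRADB and GLO1. GALNT1, which starts mucin-type glycans, stood at 9.34, 9.43, 9.46 and 9.37 with miR-638, against 9.35, 9.47, 9.57 and 9.32 with NC1 and 6.99, 7.05, 7.15 and 7.52 with NC2. MNAT1, which assembles the CDK-activating kinase, stood at 9.60, 9.45, 9.92 and 9.81 with miR-638, against 7.95, 7.69, 8.38 and 8.42 with NC1 and 9.86, 9.82, 10.15 and 9.90 with NC2. For GALNT1 the odd group was NC2 and for MNAT1 it was NC1, although both passed the comparison with the controls together (1.10 and 0.68). GLO1, a glyoxalase, differed by -0.07 from NC1 and by 1.60 from NC2, and STRADB, a pseudokinase, by -0.40 and 1.31. On the lower side SPP1, osteopontin, differed by -0.07 and -1.25, STMND1 by 0.22 and -0.94, TM4SF19 by 0.29 and -0.80 and IFI16, a sensor of DNA, by 0.12 and -0.94. None of these 4 passed against both controls together without the pair term, with adjusted p of 0.202 for SPP1, 0.195 for STMND1, 0.889 for TM4SF19 and 0.907 for IFI16. Over all genes 200 (1.58%) passed in opposite directions against NC1 and NC2.

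The genes that moved against each control were brighter than the rest: the median level was 8.65 for the higher and 9.04 for the lower genes, against 8.05 over all genes tested. This was not particular to miR-638: genes that differed between the controls had medians of 8.76 (higher with NC2 than NC1) and 8.65 (lower). Chromosome 19, which holds miR-638, carried 10.2% of the lower genes (37 of 364) and 5.30% of the higher ones, against 6.92% of all genes tested. Median gene length was 26.0 kb for the higher and 27.7 kb for the lower genes, close to the 28.1 kb of all genes. These are descriptions, with no test.

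The pulldown arrays, 3 per group, gave a readout the choice of these genes did not use: RNA recovered with biotinylated miR-638 set against RNA recovered with the biotinylated controls. In all 1460 of 13101 genes (11.1%) passed there, and 623, 542 or 652 without miR-638 pulldown array 1, 2 or 3. With the authors' values only 94 passed, so the pulldown calls below depend on the processing. Of 12265 genes measured in both experiments 848 were enriched with miR-638 (6.91%) and 593 were lower (4.83%). Among the genes lower against each control with the mimic 53 of 364 were enriched (14.6%) and 32 lower (8.79%), and among those higher 63 of 318 were enriched (19.8%) and 3 lower (0.943%). Shares also shifted for genes that differed between the control mimics. Of those lower with NC2 than with NC1, 241 of 2063 were enriched (11.7%) and 62 lower (3.01%). Of those higher with NC2, 99 of 2103 were enriched (4.71%) and 223 lower (10.6%). The median pulldown difference was -0.00 for the genes lower and 0.15 for the genes higher against each control, against -0.01 over all. Level differed between these classes too, and its part in the shares was not tested. The pulldown values were not adjusted for total RNA, so enriched means only more signal than in the control pulldowns. The part of a changed total level in these differences was not tested. RTL8C (1.73), LDOC1 (1.44), FTH1P3 (1.25) and TMEM114 (1.17), all lower after the mimic, were enriched. PHLDA2, an imprinted gene of placental growth, which fell by 0.48 after the mimic (adjusted p = 0.0939 without the pair term), was enriched by 1.36, and SRM, spermidine synthase, which fell by 0.84, by 1.00. PHLDA2 and SRM were named after their pulldown values were seen, so their enrichment is part of that choice. SLC25A23 was lower in the pulldown as well, by -1.23 (adjusted p = 9.01e-06). PANX2, ABL1, LRP3, ACTN1, PIP5K1C, CYB5R3, TP53INP2, FAM222B, NMT2, CCDC92 and RPS6KB2 did not pass in the pulldown. Of the leading increases TAGLN (0.54), DKK3 (0.31), TNNC1 (0.69), MLEC (0.42), CCN2 (0.57), SYT11 (0.66) and SYNGR3 (0.77) were enriched with miR-638. The other 8, CANX, TMEM106B, STC1, PALM3, TINAGL1, SLC22A4, TM7SF3 and RRAD, did not pass there.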

How the data were processed

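For each probe and array the authors deposited an intensity, already background-subtracted, and a detection p-value, per the file headers; the authors' software is not given in the sources used here. A second deposited table holds the authors' values on a log2 scale, by a method not given in the sources used here, and served as an alternative. In the pulldown columns the names NC1 and NC2 are exchanged between these tables; this leaves their mean unaffected. The members, the 30 gene lists, the comparisons and the naming rule were chosen with earlier results of these data known.

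The 12 mimic arrays were corrected with neqc (limma 3.58.1, R 4.3.3; background from the detection p-value, offset 16, quantile normalization, log2), and the 12 pulldown arrays likewise on their own. Probes were kept if detected (p under 0.05) on 4 mimic or 3 pulldown arrays or more. Of 47323 probes the platform annotation gives 30113 a single symbol, 8 several and 17202 none. The brightest probe stood for its gene, which left 12646 and 13101 genes. Protein features were not used here, and promoter base composition was not compared, since only 79.1% of the genes higher against each control have a promoter window.

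Groups came from the sample labels. Group means with a term for replicates 1 and 2 against 3 and 4 were fitted with lmFit and eBayes with a trend, over all 12 mimic arrays. Contrasts set miR-638 against the mean of both controls and against each. Tests were two-sided with Benjamini-Hochberg adjustment over all genes. A fit with a mean for each group in each pair gave the values within pairs and the test of their difference. The steps were tested on simulated data. Residuals from the group means correlated at 0.68 to 0.77 between arrays of the same number, at 0.68 to 0.74 between other arrays of the same pair and at -0.75 to -0.67 between pairs. The arrays thus pair by 1 and 2 against 3 and 4, a pattern in the data that the labels do not name. The number of arrays limits the precision.

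Genes were named as follows: the 15 higher and 15 lower genes with the largest value of the smaller of the differences from NC1 and NC2, among those changed in 1 direction against each and outside the controls within each pair of replicates; FTH1P3 and FTL; up to 3 members of smallest p per list; and the 4 genes each way whose differences from the controls lay furthest apart. Other members of lists, and genes of the pulldown readout such as PHLDA2 and SRM, were named after their values were seen. Placeholder names were not used; 3 higher and 7 lower genes eligible for the leading genes had one. Alternatives are listed in the closing section. Figures were made in Python 3.11.15 (matplotlib 3.10.9).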

Additional observations from a re-analysis of the deposited data

Results flagged for a closer look

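In groups of 4 arrays, 330 such groups of named genes were examined for 1 array far from the other 3, and 7 had one; chance gives about 1 in 20. AGO3 stood at 6.30 on NC2 mimic array 1, below the other NC2 arrays (6.47 to 6.50). STT3B stood at 9.13 on NC2 array 2, below 9.17 to 9.18. TP53INP1 stood at 8.28 on NC1 array 4, below 8.58 to 8.60. CSK stood at 9.67 on NC2 array 4, above 9.48 to 9.50. BCL2L13 stood at 11.95 on miR-638 array 3, above 11.88 to 11.89, and at 12.13 on NC2 array 2, below 12.27 to 12.29. STRADB stood at 7.69 on NC2 array 1, below 7.99 to 8.02.

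The miR-638 difference depended on the pair of replicates in 64 genes, by limma's test of the difference itself.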

How the results depend on the processing

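Counts are given for miR-638 against both controls, against NC1, against NC2 and in 1 direction against each, 2529, 1880, 3794 and 685 with the pair term. With no pair term they were 422, 356, 871 and 94, and with the authors' values 1297, 878, 2352 and 309. With replicate number 1 to 4 as a block in place of the pair they were 2432, 1820, 3714 and 665, so the block changed none of them by over 1.5 times; the pulldown count was 1518 with its block, against 1460. Leaving out 1 array gave 1634 to 2522, 1331 to 2014, 3039 to 3743 and 435 to 683. Within replicates 3 and 4 the count against both controls was 861, and that in 1 direction against each was 163. The 64 genes that depended on the pair became 14 with the authors' values, 33 with no detection filter, 42 with the mean of a gene's probes and 14 without the variance trend, and 18 to 72 without 1 array. The pulldown count was 94 with the authors' values and 542 to 1882 without 1 array. The causes of these changes were not tested, beyond the smaller number of arrays in the fits within a pair or without an array.

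Of the values of the named genes under the alternatives, 2462 kept direction and call and 171 kept direction but lost the call. RPL37A, at 0.18, was -0.0060 (adjusted p = 0.967) with the mean of its probes, and so changed sign. Signal over background limits the dim genes PALM3, SYNGR3, TINAGL1 and RRAD to bounds.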
